A study of Mesocricetus auratus with 6 samples.

Results

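Trimethylation of histone H3 by the Polycomb complex PRC2 keeps developmental genes silent, and the demethylases KDM6A (UTX) and KDM6B (JMJD3) take the mark off. PRC2 holds a methyltransferase (EZH1 or EZH2), the core subunits EED and SUZ12, a histone-binding subunit (RBBP4 or RBBP7) and, in some of its forms, JARID2. KDM6A also sits in the KMT2C and KMT2D complexes, which place activating methyl groups on the same histone, and its gene is X-linked in human and mouse. The uterus is known to use this system during pregnancy: in cultured human endometrial stromal cells, EZH2 declines as the cells decidualize.

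The 9 genes KDM6A, KDM6B, EZH1, EZH2, EED, SUZ12, JARID2, RBBP4 and RBBP7 were read at every probe set that the platform annotation gives to one of them alone. They had 18 probe sets of 22215 tested, and 6 of the 9 genes had more than 1. The family was chosen by the log2 difference of KDM6A, which was lower at implantation sites, so the values of all 9 genes in this same comparison are a description. One further probe set, 213971_s_at, is annotated to SUZ12 and to its pseudogene SUZ12P1 together and was not a member. RefSeq annotates each of the 9 symbols in the hamster assembly BCM_Maur_2.0, from which names alone were taken.

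RNA came from the uterus of untreated Syrian golden hamsters (Mesocricetus auratus) that were at day 5 of pregnancy. Pieces of uterus at which an embryo was implanting (implantation sites) gave 3 arrays, and pieces without an embryo (interimplantation sites) gave the other 3. The labels call the 3 arrays of each group biological replicates. The design text gives 3 animals without tying any array to one of them. Errors and p-values therefore cover the spread between arrays, which may not be that between animals. The labels used here do not state the strain, the animals' age or the cell makeup of a piece.

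The hamster RNA was read on an Affymetrix array designed for human transcripts. A probe set is a group of short probes against one transcript, and a dim probe set here can mean little RNA or a poor match to the hamster sequence. Levels are the authors' log2 values after robust multi-array averaging (RMA), and levels of different probe sets are set side by side only to say how bright a probe set is. Array medians were 4.18 to 4.20, and probe set means had quartiles of 3.10, 4.19 and 5.18. Of the 18 probe sets, 7 lay above the third quartile, 2 between it and the median, 4 between the median and the first quartile, and 5 under the first quartile. Arrays correlated at 0.989 to 0.995 within groups and at 0.985 to 0.992 between groups. Differences are log2 implantation minus interimplantation site with the standard error (SE) or 95% interval of limma's fit, and means carry the standard deviation (SD) over 3 arrays.

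KDM6A was lower at implantation sites at its bright probe set, while the groups overlapped at its dim ones. Probe set 203992_s_at read 5.64, 5.80 and 5.74 at implantation sites and 6.36, 6.53 and 6.49 at interimplantation sites. Every implantation array lay below every interimplantation array, the means being 5.73 ± 0.08 and 6.46 ± 0.09 (SD, n = 3 each). The difference of −0.73 ± 0.08 (SE), or 1.66-fold, ranked 22 from the lowest among all 22215 probe sets, and its 95% interval ran from −0.91 to −0.56. It lay between −0.78 and −0.69 whichever array was left out.

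The other probe sets of KDM6A were dim and their groups overlapped. Probe set 203990_s_at read 3.10, 3.51 and 3.19 at implantation sites and 3.42, 3.32 and 3.38 at interimplantation sites, a difference of −0.10 with an interval of −0.33 to 0.12. It rested on single arrays, with −0.02 without implantation site 1 and −0.22 without implantation site 2 (limma, unadjusted p = 0.0267, adjusted p = 0.419). Probe set 203991_s_at read 2.71, 2.93 and 2.68 at implantation sites and 2.82, 2.83 and 2.86 at interimplantation sites, a difference of −0.06 with an interval of −0.25 to 0.12. At both, implantation site 2 was the highest of the 6 arrays, while implantation sites 1 and 3 were the lowest. Neither interval reaches the difference of the bright probe set.

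With the mean of its 3 probe sets, KDM6A as a gene was at −0.30 and did not pass limma's threshold (adjusted p = 0.126). All 3 carry the suffix _s_at, which marks probes shared by several transcripts, so no KDM6A probe set remains when such sets are left out. A dim probe set understates a change where background makes up much of its signal.

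Control ratios that gauge RNA quality had lower means at implantation sites, but a shift in RNA quality was not established. The log2 signal of the 3′ control probe set of beta-actin minus that of the 5′ one was −2.08 ± 0.22 at implantation and −1.70 ± 0.15 at interimplantation sites (SD, n = 3 each). A two-sided exact permutation test over all 20 ways to split the arrays gave p = 0.1, the smallest it can give. For GAPDH the same measure was −0.21 ± 0.16 at implantation and 0.13 ± 0.17 at interimplantation sites (SD, n = 3 each, exact permutation p = 0.2). There the groups overlapped, with implantation site 3 at −0.02 and interimplantation site 2 at −0.03. With the middle control probe set in place of the 5′ one, the groups did not overlap at either control. Beta-actin was then at −3.17 ± 0.08 at implantation and −2.89 ± 0.14 at interimplantation sites. GAPDH was at −1.43 ± 0.14 and −0.97 ± 0.09 in the same order (SD, n = 3 each, exact permutation p = 0.1 for each control). The part of RNA quality in the differences between probe sets of one gene was not tested.

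**Figure D1:**
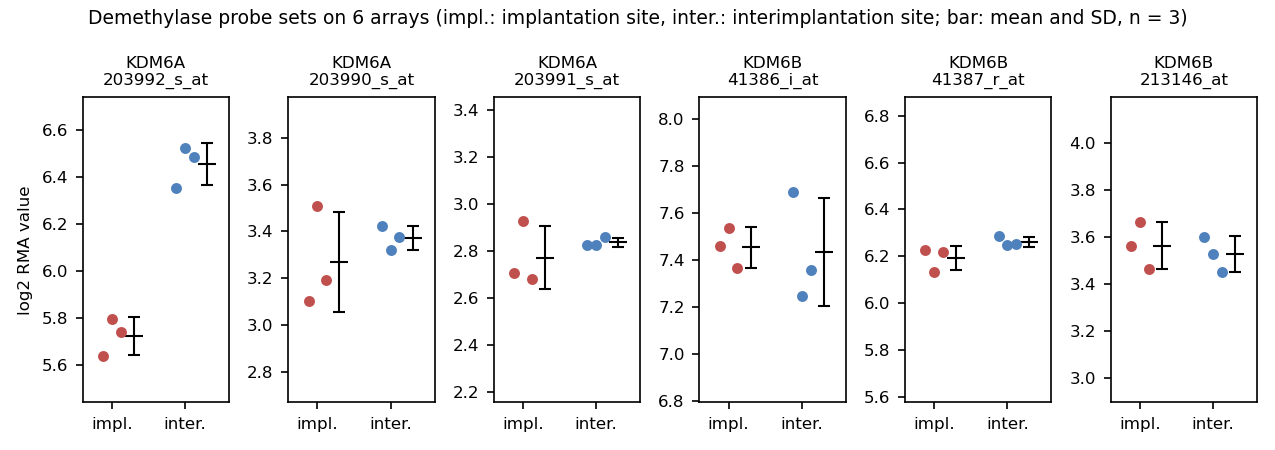
Log2 RMA values (vertical axis, the same span in each panel) of the 6 demethylase probe sets on the 3 implantation site arrays (red) and the 3 interimplantation site arrays (blue). Points are arrays and black bars are the mean and SD. The groups stand clearly apart at KDM6A 203992_s_at, where implantation arrays lie between 5.64 and 5.80, and are close or mixed in the remaining panels.

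KDM6B, the second demethylase of the mark and a gene known to be induced by inflammatory signals in macrophages, showed differences near 0. Its brightest probe set, 41386_i_at, read 7.46, 7.54 and 7.36 at implantation sites and 7.69, 7.25 and 7.36 at interimplantation sites. The implantation values lie inside the range of the interimplantation values, and the difference was 0.02 with an interval of −0.22 to 0.26. Probe set 41387_r_at read 6.23, 6.13 and 6.22 at implantation sites and 6.29, 6.25 and 6.25 at interimplantation sites. There the groups do not overlap, but by a small margin, and the difference was −0.07 ± 0.07 (SE). The dim probe set 213146_at was at 0.03 ± 0.08 (SE). None of these passed limma's test over all probe sets (adjusted p of 0.973, 0.811 and 0.930).

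UTY, the Y-linked relative of KDM6A in human and mouse, had 3 probe sets with log2 differences of −0.02, −0.04 and −0.01 (adjusted p of 0.958, 0.928 and 0.983). RefSeq's table for the hamster assembly lists no gene under the symbol UTY, which does not show that the gene is absent. The uterus is female, but implantation sites also held an embryo, whose sex is not stated. These values are therefore not read as a measure of UTY RNA. They are given because UTY resembles KDM6A in sequence.

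Of the methyltransferases, EZH2 was higher at implantation sites at its dim probe set, and EZH1 overlapped between the groups at every probe set. EZH2 is the form of dividing cells, and EZH1 is the form that persists in resting tissue. EZH2 (203358_s_at) read 3.38, 3.23 and 3.25 at implantation sites and 3.15, 2.69 and 3.00 at interimplantation sites. All implantation arrays lay above all interimplantation arrays, although interimplantation site 1 came close to them. The means were 3.29 ± 0.08 and 2.94 ± 0.23 (SD, n = 3 each), a difference of 0.34 ± 0.11 (SE) or 1.27-fold. It did not pass the threshold over all probe sets (limma, adjusted p = 0.250, unadjusted p = 0.00954). Without interimplantation site 2, the lowest array, the difference was 0.21.

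EZH1 had 3 probe sets. The brightest, 203249_at, read 4.80, 4.94 and 5.07 at implantation sites and 4.55, 4.57 and 5.00 at interimplantation sites. Interimplantation site 3 lay among the implantation arrays, so the groups overlap, and the difference was 0.23 ± 0.12 (SE) with an interval of −0.03 to 0.50. Without that array it was 0.38 (limma, unadjusted p = 0.00258, adjusted p = 0.171), and without interimplantation site 1 it was 0.15. The dim probe sets 32259_at and 211310_at were at −0.05 and −0.03, each with overlapping groups. The share of EZH2 against EZH1 RNA cannot be read from these values, since probe sets differ in how well they match the hamster transcript.

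The core subunits showed small differences at probe sets of low or middle brightness. EED, which binds the methyl mark and stimulates the enzyme, read 5.10, 5.20 and 5.13 at implantation sites and 5.05, 5.08 and 4.91 at interimplantation sites at probe set 209572_s_at. The groups do not overlap and the difference was 0.13 ± 0.08 (SE). Its other probe set, 210656_at, went the opposite way, with 2.05, 2.18 and 2.17 at implantation sites and 2.23, 2.27 and 2.33 at interimplantation sites, a difference of −0.15 ± 0.07 (SE). That probe set lay at percentile 3.80 of brightness. Neither passed (limma, adjusted p of 0.630 and 0.538).

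SUZ12, which holds the complex together, was read by 212287_at alone among the members, a probe set under the first quartile. It gave 2.47, 2.70 and 2.62 at implantation sites and 2.55, 2.47 and 2.42 at interimplantation sites. The groups overlap through implantation site 1, and the difference was 0.12 ± 0.08 (SE). The probe set shared with the pseudogene was at 0.03 ± 0.10 (SE).

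JARID2, a protein without demethylase activity of its own that guides PRC2 to chromatin, had a pair of bright probe sets that pointed in opposite directions. Probe set 203298_s_at read 6.43, 6.40 and 6.33 at implantation sites and 6.16, 6.27 and 6.20 at interimplantation sites. All implantation arrays were higher, with a difference of 0.18 ± 0.07 (SE, limma adjusted p = 0.403, unadjusted p = 0.0316). Probe set 203297_s_at read 6.39, 6.49 and 6.51 at implantation sites and 6.56, 6.44 and 6.76 at interimplantation sites, a difference of −0.12 ± 0.09 (SE) with overlapping groups. No direction can therefore be given for JARID2 as a gene.

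The histone-binding subunits gave the brightest signals of the family. RBBP4 and RBBP7 also serve histone deacetylase complexes such as NuRD and SIN3, and RBBP4 serves the chromatin assembly factor. RBBP7 (201092_at) read 8.28, 8.17 and 8.09 at implantation sites and 8.47, 8.36 and 8.35 at interimplantation sites. All implantation arrays were lower, with means of 8.18 ± 0.09 and 8.40 ± 0.07 (SD, n = 3 each). The difference of −0.22 ± 0.08 (SE), or 1.16-fold, did not pass over all probe sets (limma, adjusted p = 0.322, unadjusted p = 0.0189). After repeated quantile normalization it was −0.37 (limma, adjusted p = 0.0740, unadjusted p = 0.00112).

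RBBP4 overlapped between the groups at both of its probe sets. Its bright probe set 217301_x_at read 8.18, 8.37 and 8.26 at implantation sites and 8.08, 8.40 and 8.14 at interimplantation sites, a difference of 0.06 ± 0.10 (SE) with overlapping groups. The suffix _x_at marks probes that also match other sequences, and RBBP4 and RBBP7 are close relatives, so the assignment of this signal is uncertain. The dim probe set 210371_s_at was at 0.15 ± 0.09 (SE), with overlapping groups. After repeated quantile normalization the bright probe set was at −0.03.

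**Figure D2:**
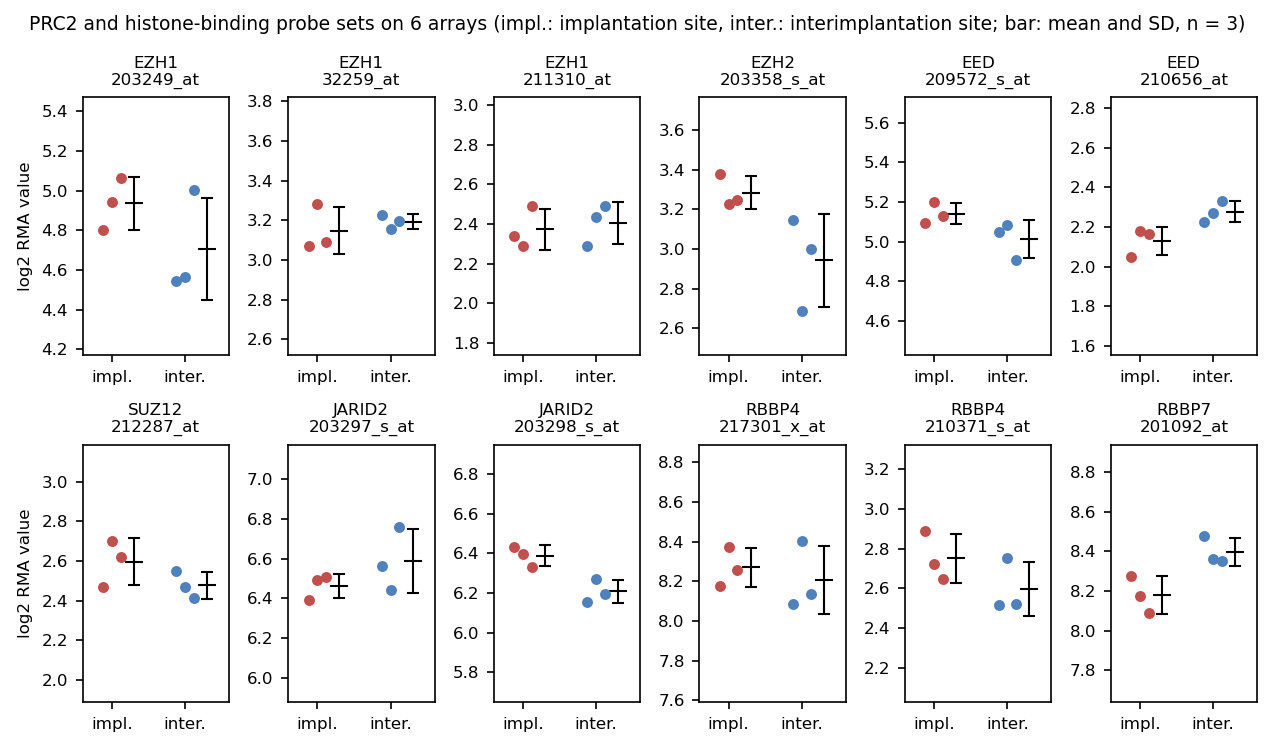
Log2 RMA values (vertical axis, the same span in each panel) of the 12 probe sets of PRC2 and the histone-binding subunits on implantation site arrays (red) and interimplantation site arrays (blue). Points are arrays and black bars are the mean and SD. EZH2, EED 209572_s_at and JARID2 203298_s_at lie higher and RBBP7 and EED 210656_at lie lower at implantation sites without overlap.

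Over the whole family the differences were mixed in sign and small apart from KDM6A. Of the 18 probe sets, 9 were above 0 and 9 below, with a median of −0.01, against −0.01 over all probe sets. In limma's test with adjustment over all probe sets, 1 member probe set passed, KDM6A 203992_s_at, and 0 were higher, against 1.06% called over all probe sets (0.702% higher and 0.356% lower). Among the 15 probe sets of the other 8 genes 0 passed, and 3 had an unadjusted p under 0.05 (EZH2, JARID2 203298_s_at and RBBP7), against 10.5% of all probe sets (5.27% higher and 5.23% lower). The groups did not overlap at 7 of the 18, where 16.0% of all probe sets had no overlap. Of these 7, 3 were higher and 4 lower, against 7.72% and 8.3% of all probe sets. Since this comparison chose the family, nothing is read from these shares.

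The intervals cover the spread of arrays at a probe set and do not bound the change of a gene, as the 3 probe sets of KDM6A show. For the 15 probe sets of the other 8 genes, differences ran from −0.22 to 0.34 and standard errors from 0.07 to 0.12. At KDM6B 41386_i_at, RBBP4 217301_x_at and both JARID2 probe sets, all bright, the intervals leave out a fall as large as that of KDM6A 203992_s_at.

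**Figure D3:**
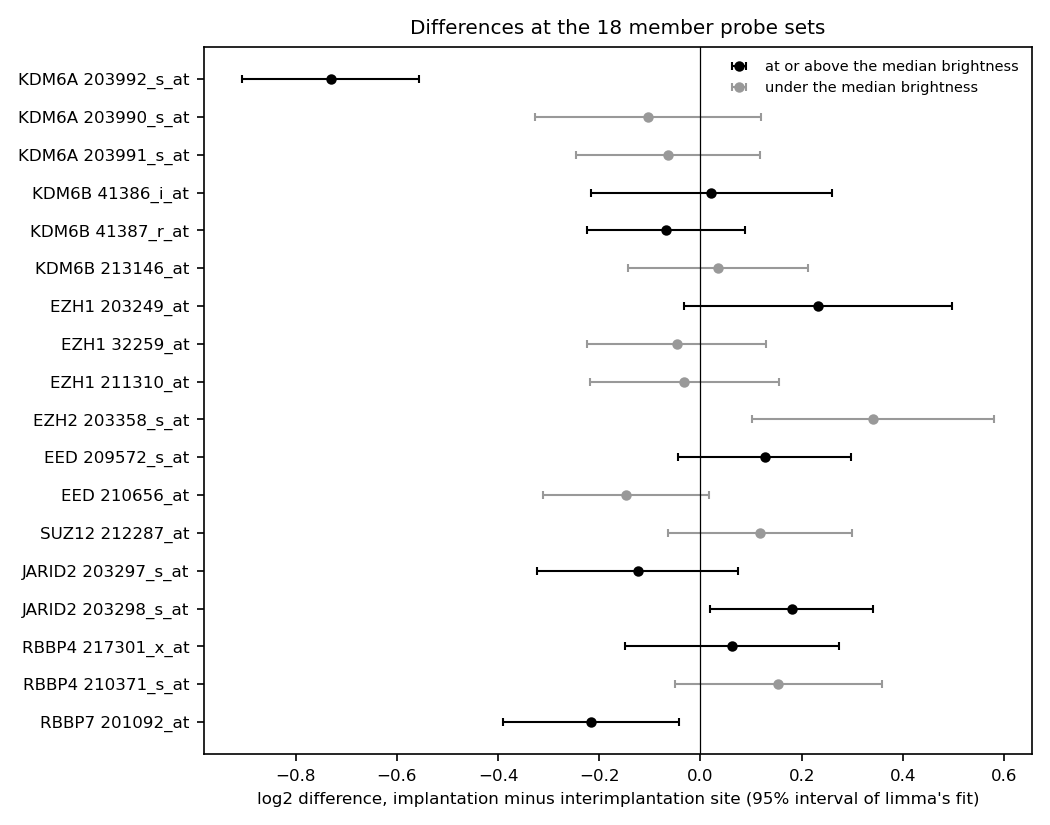
Log2 differences, implantation minus interimplantation site (horizontal axis), at the 18 member probe sets (vertical axis), with the 95% interval of limma's fit. Black marks probe sets of at least median brightness and grey those under it. KDM6A 203992_s_at stands at −0.73, and the other 17 lie between −0.22 and 0.34.

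Of the measured genes of related chromatin complexes and enzymes, none passed the test. In all, 7 lists of related chromatin genes held 96 measured genes, each read at its brightest probe set, and 0 passed limma's test over 11963 genes, where 1.24% were called (0.777% higher and 0.46% lower). Without adjustment, 4 genes higher and 6 genes lower had a p under 0.05, against 5.68% and 5.22% of all genes, or 10.9% in either direction. The lowest adjusted p was 0.266, and the list genes had a median difference of −0.02, against −0.01 over all genes. The lists come from textbook complexes and were written with earlier results of these arrays known.

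The list nearest to KDM6A is that of the KMT2 complexes, of which 14 genes were measured. Their median was −0.01. The smallest p belonged to KMT2B (−0.24 ± 0.08 SE, adjusted p = 0.277), a methyltransferase other than KMT2C and KMT2D. RBBP5, a core scaffold subunit, came next (−0.25 ± 0.09 SE, adjusted p = 0.279). It was read at a dim probe set, at percentile 24.0 of brightness. The pair of dimmer KMT2B probe sets were at 0.00 and 0.05, and 7 of the 14 genes were above 0. Among 20 other histone demethylases and their relatives, JMJD1C (−0.33 ± 0.12 SE, adjusted p = 0.266) and KDM3A (−0.24 ± 0.09 SE, adjusted p = 0.287) had the smallest p. Of these 20, 5 were above 0, and the median was −0.04. The 20, and so the 96 genes of the 7 lists, include UTY and KDM5D, at −0.04 each. That median falls between their values, and neither value is read as a measure of RNA.

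PRC1, the Polycomb complex that ubiquitinates histone H2A, had 19 measured subunits with a median of −0.01. RYBP, which is part of its variant forms, was at 0.24 ± 0.11 (SE, adjusted p = 0.442) and CBX6, a chromobox subunit, at 0.20 ± 0.11 (SE, adjusted p = 0.566). Of the 4 genes around removal of that ubiquitin, ASXL3 (−0.12) and ASXL1 (−0.13), partners of the deubiquitinase BAP1, had the smallest p. Of PRC2 accessory subunits, MTF2 and PHF1 were measured, at 0.33 ± 0.25 and −0.09 ± 0.08 (SE). MTF2 varied widely at interimplantation sites, with 6.66, 5.79 and 5.29, against 6.10, 6.36 and 6.26 at implantation sites.

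Other histone methyltransferases had a median of 0.02 over 14 genes, led by NSD2 (0.18, adjusted p = 0.448) and SUV39H1 (0.18, adjusted p = 0.462). The 23 measured partners of RBBP4 and RBBP7 outside PRC2 had a median of 0.00. ASF1A, a histone chaperone, was at 0.24 and BPTF, the large subunit of the NURF remodeller, at −0.22 (adjusted p of 0.365 each). These lists therefore gave no gene past the threshold in either direction.

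Proliferation genes, in whose company EZH2 is known to be expressed, were mostly higher at implantation sites, and 3 of 28 passed. CKS2 (log2 1.35 ± 0.16 SE, adjusted p = 0.00172), CCNA2 (0.80 ± 0.11, adjusted p = 0.00432) and PCNA (0.54 ± 0.09, adjusted p = 0.0159) rose and 0 fell, where 0.777% and 0.46% of all genes were called. Without adjustment, 14 of the 28 were higher and 0 lower at a p under 0.05, against 5.68% and 5.22% of all genes. Of the 28, 21 were above 0, and the median was 0.19. CCNA2 was at 0.41 and missed the threshold when its probe sets were averaged (adjusted p = 0.0591), its dimmer probe set being at 0.02. CKS2 had a single probe set, which carries the suffix _s_at, so CKS2 has no value when such sets are left out. PCNA was read at a dim probe set, at percentile 11.7 of brightness. It missed the threshold without implantation site 3 (adjusted p = 0.0850) or interimplantation site 3 (0.0804). At CKS2 interimplantation site 2 was the highest array of its group (5.25), while at EZH2 it was the lowest (2.69).

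HOX genes are long-known targets of Polycomb silencing. Of 24 measured, HOXB6 fell (−1.05 ± 0.14 SE, adjusted p = 0.00308) and 0 rose, against 0.46% of all genes lower and 0.777% higher, with a median of −0.01. Another probe set of HOXB6, used when _s_at and _x_at sets are left out, was at −0.03 (adjusted p = 0.948). The mark itself was not measured here.

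**Figure D4:**
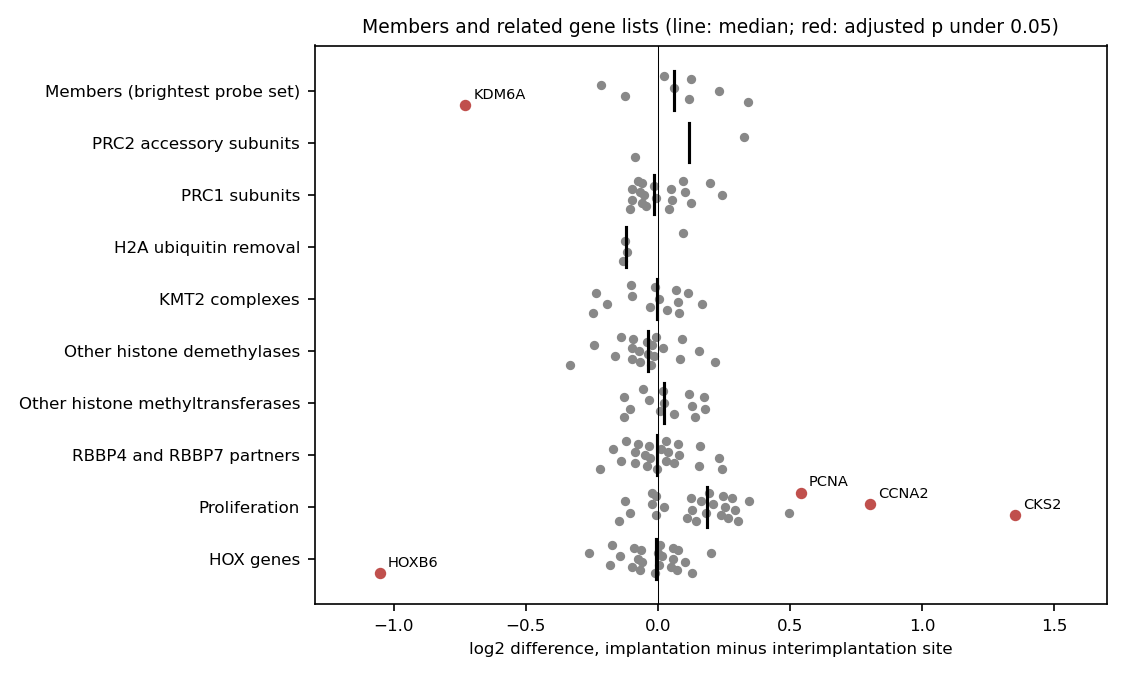
Log2 differences, implantation minus interimplantation site (horizontal axis), for the 9 member genes and 9 lists of related genes (rows), each gene at its brightest probe set. Points are genes (spread vertically for legibility), black lines are list medians, and red points passed limma's adjusted threshold of 0.05. Red points are KDM6A, HOXB6, CKS2, CCNA2 and PCNA.

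Markers of the cells that a piece of uterus can hold also differed between the groups, and in bulk tissue fewer cells of a type and less RNA per cell cannot be told apart. Of all genes 0.777% were called higher and 0.46% lower, the shares against which the counts of each marker list stand. Of 9 smooth muscle markers 3 fell (TAGLN, ACTG2 and MYLK) and 0 rose. The other 6 did not pass, 4 of the 9 were above 0 (up to 0.15) and the median was −0.02. The mean log2 level of the 9 ran from 5.30 to 5.32 at implantation and from 5.46 to 5.61 at interimplantation sites. Of 12 epithelial markers TJP1 and SOX17 fell, and the mean level ran from 4.49 to 4.64 at implantation and from 4.74 to 4.77 at interimplantation sites. In that list 4 of the 12 were above 0 (up to 0.05), and the median was −0.08. Of 8 endothelial markers 0 passed (limma, and 0 at an unadjusted p under 0.05), with mean levels between 4.32 and 4.37 at implantation sites and between 4.39 and 4.46 at interimplantation sites. The 3 muscle markers each missed the threshold without 5 of the 6 arrays in turn (adjusted p up to 0.145, 0.127 and 0.188). In the fit on averaged probe sets ACTG2 (adjusted p = 0.0697) and MYLK (0.0677) missed it and TAGLN passed (0.0495). Without _s_at and _x_at sets ACTG2 missed it (0.0542), while TAGLN and MYLK had no value. TJP1 missed the threshold when its probe sets were averaged (−0.31, adjusted p = 0.105). The means of these 3 lists were lower at every implantation array, as KDM6A 203992_s_at was, and their part in its value was not tested.

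Of 8 stromal markers WT1 and COL1A1 rose and PDGFRA fell, with mean levels of 7.14 to 7.25 at implantation and 7.05 to 7.16 at interimplantation sites. Of 7 leukocyte markers SPI1 fell, with mean levels of 4.15 to 4.25 at implantation and 4.20 to 4.25 at interimplantation sites. Most of that list went the other way, with 5 of the 7 above 0 (up to 0.13) and a median of 0.04. SPI1 also missed the threshold without 5 of the 6 arrays in turn (adjusted p up to 0.132), and WT1 without interimplantation site 3 (0.0747). In the fit on averaged probe sets SPI1 missed it too (0.0520), and so it did without _s_at and _x_at sets (0.0512). WT1 and COL1A1 had no value without such sets. Averaged over their probe sets, WT1 (0.36), COL1A1 (0.28) and PDGFRA (−0.26) did not pass. Of 8 markers of trophoblast and early embryo 0 passed (limma, and 0 at an unadjusted p under 0.05), with mean levels of 4.30 to 4.34 in both groups. No log2 value in the table is 0. The uterine markers vimentin (VIM, 8.92 at implantation and 9.14 at interimplantation sites) and COL1A1 (10.42 and 9.85 in the same order) were bright. The progesterone receptor PGR (3.22 at implantation and 3.34 at interimplantation sites) and EPCAM (2.76 at implantation and 2.84 at interimplantation sites) were dim on these human probes.

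The genes whose arrays ran most like KDM6A 203992_s_at were ranked by Pearson correlation over the 6 arrays among 7273 genes of at least median brightness. The first 5 were ENPP2, the lysophospholipid enzyme autotaxin (r = 0.994), KCNMA1, the pore subunit of a large potassium channel of smooth muscle (0.994), SRSF7, a splicing factor (0.991), ACVR1B, a type I activin receptor (0.990), and WIPI1, an autophagy protein (0.988). Their log2 differences were −0.26, −0.72, −0.93, −0.56 and −0.44, and each had all implantation arrays below all interimplantation arrays. With so few arrays in separate groups such values mostly restate the group difference, and they carry no test.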

How the data were processed

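Arrays of 3 implantation and 3 interimplantation sites were analysed. For every array the authors deposited a log2 value per probe set, and the submitters' processing notes name RMA and Partek 6.6. The method subtracts background, equalises arrays and summarises probes, so a change in total RNA output is not visible. Settings of RMA are not stated, and the log base was read from the range of 1.65 to 12.1.

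Of 22283 probe sets, 68 controls were left out. The platform annotation assigned 19065 to a single gene, 1043 to several and 2107 to none. The test was limma (3.58.1, with R 4.3.3) without covariates, two-sided, with p-values adjusted by Benjamini and Hochberg's method across 22215 probe sets, or across 11963 genes represented by their brightest probe set, and a threshold of 0.05. The fit was tested on simulated data.

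Members and lists were chosen with earlier results of these data known. Named genes were all members, list genes past the threshold or with the 2 smallest p per list, markers, and the 5 genes most like KDM6A. UTY probe sets, KDM5D and the other probe sets of KMT2B, CCNA2 and HOXB6 were named after their values were seen. Control ratios were compared with exact permutation tests. Scan dates were not used here, so no batch was examined. Alternatives were replicate blocks, brightness filters, normalizations, variance models, probe set choices and leaving out each array. The number of arrays limits the precision.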

Additional observations from a re-analysis of the deposited data

How the results depend on the processing

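KDM6A 203992_s_at stayed past the threshold in every setting that kept it (log2 −0.78 to −0.69 without single arrays). The family was chosen for this value and the settings reuse the same arrays, so its passing is a description and not support. As a gene KDM6A missed the threshold when its 3 probe sets were averaged (−0.30, adjusted p = 0.126). Without _s_at and _x_at probe sets 0 members and 0 lower genes of the related lists were left past the threshold. In none of the settings did another member probe set pass. Among values near 0 the sign turned in some settings without single arrays, with ranges of −0.091 to 0.011 at EZH1 211310_at, −0.016 to 0.085 at KDM6B 213146_at, −0.071 to 0.15 at KDM6B 41386_i_at and −0.00080 to 0.16 at RBBP4 217301_x_at. RBBP4 217301_x_at was also at −0.032 after repeated quantile normalization. Probe sets called over the whole table numbered 156 higher and 79 lower. They were 37 and 20 without _s_at and _x_at sets, 133 lower with array weights, and 83 to 140 higher and 33 to 90 lower without single arrays. Genes called numbered 93 higher and 55 lower. They were 38 and 21 without _s_at and _x_at sets, and 26 lower when probe sets of a gene were averaged. With array weights 96 were lower, and without single arrays 50 to 89 were higher and 25 to 65 lower. Related list genes were 1 to 2 lower without single arrays. CCNA2 was at 0.41 when its probe sets were averaged (adjusted p = 0.0591), and COL1A1 at 0.28 after repeated quantile normalization (adjusted p = 0.131). Deviations of arrays of the same replicate number had correlations of 0.05, 0.00 and 0.07, against −0.07 to 0.02 for arrays of different numbers. Values this small do not show whether the numbers mark pairs, and the main fit took none. With the replicate block 159 probe sets were higher and 93 lower, KDM6A 203992_s_at was at −0.73, and ACTG2 missed the threshold (adjusted p = 0.0677). The interval of dim probe sets covers array error only, not a poor match of human probes to hamster RNA.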
